A study of Mus musculus with 3 samples.

Results

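The genes examined encode the 3 chains of C1q, the first recognition molecule of the complement cascade (C1qa, C1qb and C1qc), and 4 proteins that control complement: properdin (Cfp), the C1 inhibitor (Serping1), decay-accelerating factor (Cd55) and the main mouse form of protectin (Cd59a). They were taken by gene symbol, and all 7 were found, each with 1 identifier, among 55536 annotated genes. The RNA came from bone-marrow-derived macrophages of C57BL/6J mice, which are primary cells grown from marrow precursors in culture. The cells received Lipid A, the part of bacterial endotoxin that activates Toll-like receptor 4, at 100 ng/ml for 12 h, were kept without it for 12 h, and received 100 ng/ml again for 30 min. RNA of the cytosolic fraction, 1 µg per library, was depleted of ribosomal RNA and sequenced in 3 biological replicates, which form 1 group and share 1 donor entry. Sex and age were not collected. Their spread measures only the difference between these samples, which may be technical. No untreated sample or nuclear fraction was analysed here, so levels are described and compared between genes of a library, and no response to Lipid A is stated.

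Complement is a chain of plasma proteases and adaptor proteins that tags microbes and dying cells and can open pores in membranes. C1q is a bundle of trimers, each made of an A, a B and a C chain, and carries the proteases C1r and C1s, which start the classical pathway once C1q has bound its target. Most complement proteins are made in the liver, whereas macrophages and related myeloid cells are the main source of C1q. Properdin stabilises the C3 convertase of the alternative pathway and is the positive regulator of the system. The C1 inhibitor is a plasma serpin that removes C1r and C1s from C1q, Cd55 speeds the decay of C3 convertases on the cell surface, and Cd59a blocks assembly of the membrane pore.

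Depth ranged from 28759407 to 54709008 expected counts in annotated genes, with replicate 1 the shallowest. An expected count is the number of reads a model assigns to a gene, and TPM is the length-scaled share of a gene in a library, so that only TPM compares levels between genes. All 10 macrophage markers reached 1 TPM in every library. Of 10 neutrophil markers 3 did so, S100a8, S100a9 and Mmp8, while Ly6g and Retnlg were at 0 and the summed level of the list was 9.39 to 12.0 TPM. None of 9 fibroblast and stromal markers (summed level 0.67 to 1.46 TPM), 5 T and B cell markers (0.06 to 0.11 TPM) or 5 dendritic markers (0.95 to 1.03 TPM) reached 1 TPM, and the 5 hepatocyte markers were at 0 in all 3 libraries. In bulk RNA, fewer cells of a type and less RNA per cell cannot be told apart.

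The C1q genes lie side by side on the minus strand of chromosome 4 (mm10), in the order C1qb, C1qc, C1qa, with no other annotated gene within the 18675 bases they span. C1qb (ENSMUSG00000036905.8) covers 136880129 to 136886187, C1qc (ENSMUSG00000036896.5) 136889804 to 136893065 and C1qa (ENSMUSG00000036887.5) 136895917 to 136898803. Intervals of 3616 and 2851 bases separate them. Each coding transcript has 3 exons, and the coding parts hold 253 codons for C1qb, 246 for C1qc and 245 for C1qa. No 31-base word of these transcripts occurred in a transcript of another gene, so their reads are not divided with a paralog.

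The bases upstream of C1qb and C1qc are shown because these 2 neighbours were the most abundant members, with those of Cfp, the abundant member on another chromosome, beside them. They are from RefSeq (GRCm38.p6, the assembly of mm10), on the minus strand, 5′ to 3′, at chr4:136886201-136886450 for C1qb, chr4:136893066-136893164 for C1qc and chrX:20931556-20931805 for Cfp. Capitals mark matches to GAGGAA, a core that the macrophage factor PU.1 can bind, or TGCTGA, part of a site for Maf factors, on either strand.
C1qb: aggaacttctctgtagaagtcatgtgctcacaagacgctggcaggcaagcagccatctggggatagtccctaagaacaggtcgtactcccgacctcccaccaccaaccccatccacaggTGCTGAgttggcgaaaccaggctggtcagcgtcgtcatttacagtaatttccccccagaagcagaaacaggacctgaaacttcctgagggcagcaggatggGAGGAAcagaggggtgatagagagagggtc
C1qc: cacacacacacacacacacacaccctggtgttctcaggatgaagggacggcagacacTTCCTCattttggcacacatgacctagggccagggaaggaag
Cfp: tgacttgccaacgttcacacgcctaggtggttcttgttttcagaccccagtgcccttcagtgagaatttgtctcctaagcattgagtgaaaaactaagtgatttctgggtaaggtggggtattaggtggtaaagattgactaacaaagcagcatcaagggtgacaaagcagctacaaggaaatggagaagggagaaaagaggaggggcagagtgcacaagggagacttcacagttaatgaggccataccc
Only the 99 bases before the outermost GENCODE start of C1qc are shown, whereas 250 bases before the RefSeq start were searched in each gene. RefSeq promoter entries matched 5 of the 7 members. C1qb held TGCTGA at position -131 and GAGGAA at -30 from its RefSeq start. C1qc held GAGGAA on the opposite strand at -193, Cd59a held it at -62, and Cfp held no match. Cd55 held TGCTGA at -243 on the opposite strand and at -195. A form of the interferon-stimulated response element matched only in Cd59a, at -187, and the TATA box TATAAA matched in none of the 5. Of 32851 RefSeq promoters searched over the same 250 bases, 23.3% held GAGGAA, 16.1% TGCTGA, 2.98% the interferon-stimulated element and 12.4% TATAAA. A match describes letters and is not a site.

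C1q mRNA was abundant, and its chains were unequal. C1qb, the B chain, stood at 969.96, 815.1 and 1034 TPM in replicates 1, 2 and 3 (939.7 ± 112 TPM, SD, n = 3), rank 23 among 22015 nuclear protein-coding genes. C1qc, the C chain, stood at 752.9, 650.7 and 793.6 TPM (732 ± 73.6 TPM), rank 30. C1qa, the A chain, stood at 225.8, 203.6 and 252 TPM (227 ± 24.4 TPM), rank 149. In each chain replicate 3 was highest and replicate 2 lowest, and the range of C1qa did not overlap that of either other chain. Together the chains took 0.291%, 0.276% and 0.319% of expected counts, or 393646 counts over the 3 libraries.

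The proportions of the chains differed little between libraries. C1qb made up 49.4% ± 0.530 of the TPM of the 3 chains, C1qc 38.6% ± 0.412 and C1qa 12.0% ± 0.336 (SD, n = 3). Within a library C1qb was 4.30, 4.003 and 4.10 times C1qa in replicates 1, 2 and 3, and C1qc was 3.33, 3.20 and 3.14 times C1qa. C1qb was 1.29, 1.25 and 1.30 times C1qc. These ratios set transcripts side by side and say nothing of protein. A difference of log2(TPM + 1) within libraries was called where it had the same sign in every library and its mean exceeded 3 SD. This SD holds only the spread between libraries. An error in the TPM of a gene that recurs in every library is not measured by it, which matters most for small differences. By this rule C1qb exceeded C1qa by a log2 of 2.04 ± 0.05, C1qc exceeded C1qa by 1.68 ± 0.04 and C1qb exceeded C1qc by 0.36 ± 0.03, with the same direction in every library. The two-sided exact sign-flip permutation test gave p = 0.25 for each, the smallest p possible with n = 3, and 0.25 after Benjamini-Hochberg adjustment over the 8 planned contrasts. Of these 7 were called, and the p of every contrast given below was likewise 0.25.

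**Figure D1:**
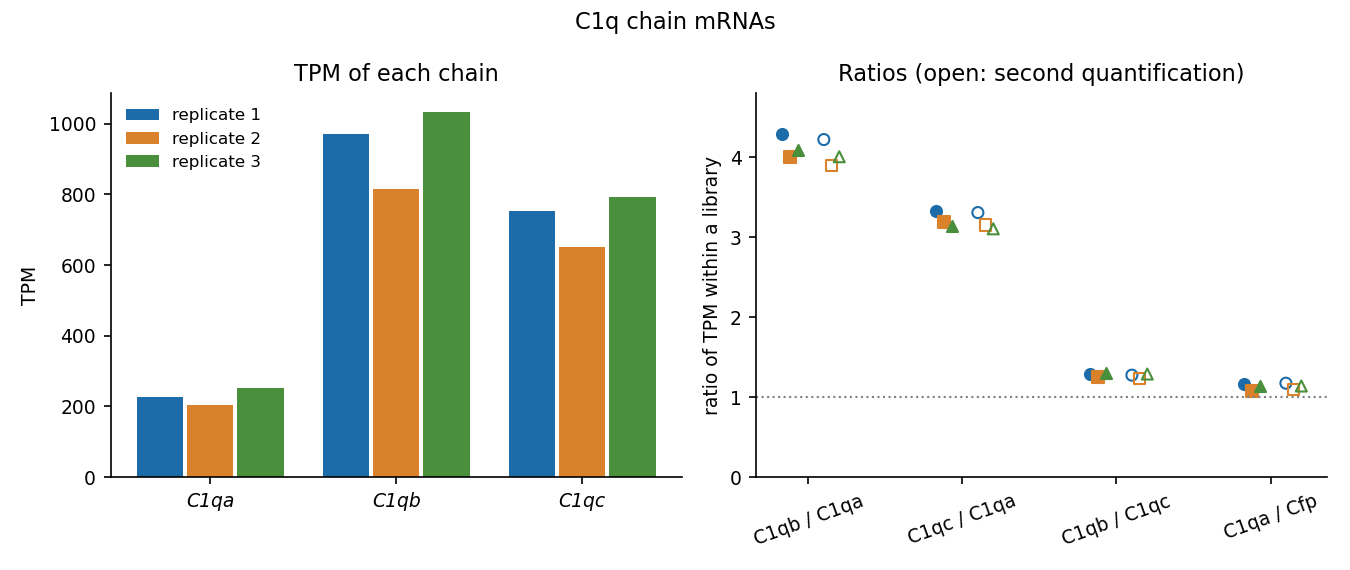
TPM of the 3 C1q chain genes in each library (bars, left) and ratios of TPM within each library (right; filled points from the expected-count table, open points from the second deposited quantification). C1qb lies at 4.003 to 4.30 times C1qa and C1qc at 3.14 to 3.33 times, and the open points lie close to the filled ones.

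The second deposited quantification, made from the reads with an index, gave nearly the same proportions at lower TPM. C1qb stood there at 439.8, 409.4 and 330.2 TPM, and at 4.22, 3.90 and 4.01 times C1qa. In that table replicate 3 was lowest for every chain, the reverse of the first table. Nuclear protein-coding genes together held 14.4%, 14.8% and 9.96% of TPM in its replicates 1, 2 and 3, against 30.0%, 27.9% and 29.4% in the first. The small cytoplasmic RNA genes Rn7s1 and Rn7s2, which were not members, together held 63.2%, 64.8% and 58.0% of TPM in the first table and 23.9%, 27.9% and 14.9% in the second. The part of these shares in the order of libraries was not tested. C1qa and C1qb have 1 annotated transcript each, and the coding transcript of C1qc, C1qc-201, held 99.9% ± 0.0841 of its counts.

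Cfp, the gene of properdin (ENSMUSG00000001128.7, chromosome X, 20925454 to 20931555, minus strand, 9 exons), stood at 194.4, 188.9 and 221.5 TPM in replicates 1, 2 and 3 (202 ± 17.5 TPM), rank 177 among nuclear protein-coding genes. It lay near C1qa, with C1qa 1.16, 1.08 and 1.14 times as high. The difference of C1qa from Cfp, a log2 of 0.17 ± 0.06, was called but small. It was within 3 SD without replicate 1 (0.15 ± 0.06) and without replicate 3 (0.16 ± 0.08). On the log2 scale Cfp minus the mean of the C1q chains was -1.41 ± 0.08, and Cfp was the lower in every library. The coding transcript Cfp-201 held 99.8% ± 0.0657 of its counts.

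Serping1, the gene of the C1 inhibitor (ENSMUSG00000023224.12, chromosome 2, 84765387 to 84775444, minus strand), was not detected. Replicates 1, 2 and 3 gave it 0, 1 and 5 expected counts, or 0, 0.01 and 0.04 TPM. The count of 0 was taken by a fixed setting to allow up to 3 counts, or 0.104 CPM. Its exact 95% Poisson interval reaches 3.69 counts, and that of the count of 5 is 1.62 to 11.7, from counting error alone. All 6 counts fell on the coding transcript Serping1-201, and no 31-base word of it occurred in another gene. On the log2(TPM + 1) scale Serping1 minus the mean of the C1q chains was -9.05 ± 0.14 and Cfp minus Serping1 was 7.64 ± 0.10, with 1 direction in every library for each. These sizes are set by the pseudocount, with -12.18 ± 0.21 and 10.77 ± 0.15 at a pseudocount of 0.1.

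The proteases that C1q carries were low too. C1ra, the gene of C1r, stood at 2.86, 1.78 and 2.69 TPM, and C1s1, the gene of C1s, at 0.01, 0.01 and 0 TPM. Their mean minus that of the C1q chains was -8.18 ± 0.08 on the log2(TPM + 1) scale, lower in every library, and -10.02 ± 0.11 at a pseudocount of 0.1. The second copies C1rb and C1s2 did not reach 1 TPM, with C1rb at 0 counts in all 3 libraries.

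Both membrane regulators among the members were low. Cd55 (ENSMUSG00000026399.12, chromosome 1, 130439027 to 130462744, minus strand) stood at 1.96, 2.66 and 2.29 TPM in replicates 1, 2 and 3, from 188, 591 and 433 expected counts. Cd59a (ENSMUSG00000032679.12, chromosome 2, 104095801 to 104115354, plus strand) stood at 1.72, 1.19 and 1.46 TPM, from 109, 177 and 182 counts. Their ranges did not overlap, but the difference of Cd55 from Cd59a, a log2 of 0.43 ± 0.31, was within 3 SD and not called, although Cd55 was the higher in every library. In the second quantification Cd55 stood at 0.940, 1.35 and 0.792 TPM and Cd59a at 0.990, 0.769 and 0.661 TPM, so that Cd55 was there the lower in replicate 1. Cd59a was below 1 TPM in every library of that table and Cd55 in replicates 1 and 3, so that whether either gene reaches 1 TPM in every library depends on the table.

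Part of the Cd55 counts was assigned to transcripts other than its full coding one. Cd55-201, which holds 10 exons and 390 codons, took 56.1% ± 2.49 of Cd55 counts, and Cd55-205, annotated as a retained intron, took 39.1% ± 0.584 (SD, n = 3). The second quantification gave 56.1% ± 2.59 and 39.1% ± 1.05. Both sets of shares are model assignments of reads from the same libraries to overlapping transcripts. For Cd59a the coding transcript Cd59a-201 took 95.4%, 84.6% and 89.5% in replicates 1, 2 and 3, and Cd59a-203, which has the same 123 codons, took 0%, 15.4% and 10.5%. Both genes have paralogs beside them. Of the 31-base words of Cd55-201, 17.8% also occurred in Cd55b, which had 0 counts in all 3 libraries. For Cd59a-201 and Cd59b the share was 8.97%, and Cd59b stood at 0.13, 0.27 and 0.12 TPM. The antisense gene Gm16083 overlaps Cd55 over 169 bases and received 0, 3 and 3 counts. Whether counting used strand is not given in the sources used here.

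**Figure D2:**
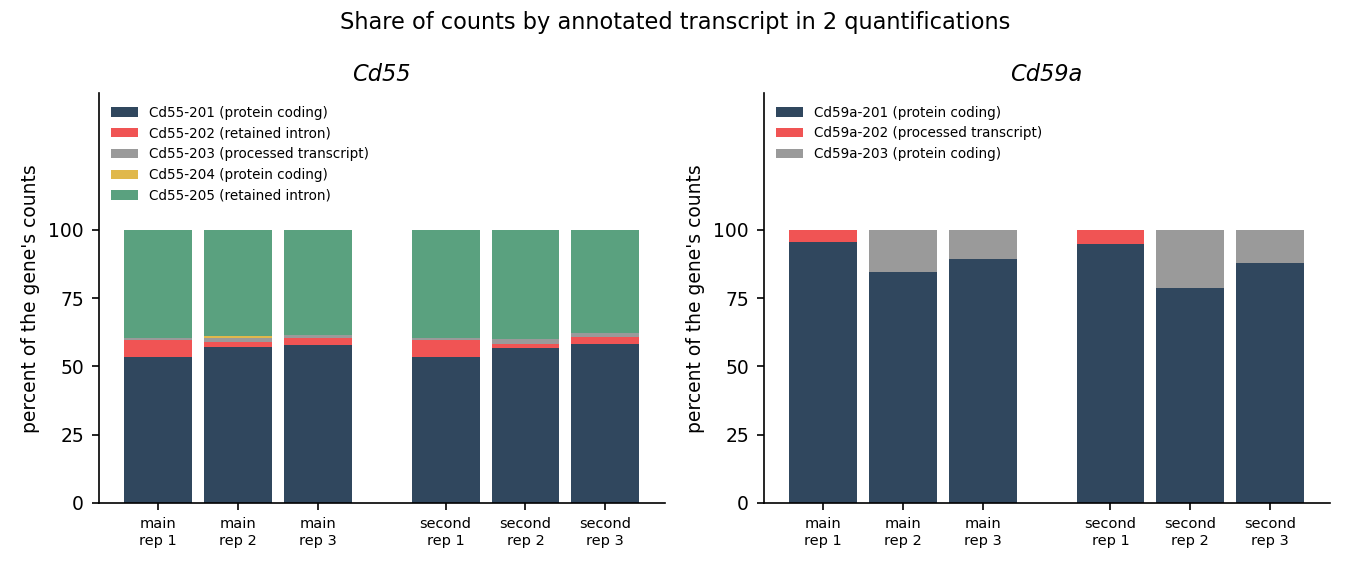
Percent of the counts of Cd55 (left) and Cd59a (right) that each annotated transcript received, per library, in the expected-count table (main) and in the second deposited quantification (second). The retained-intron transcript Cd55-205 holds 38.7% to 39.8% of Cd55 counts in the main table.

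In order of mean TPM the members ran C1qb, C1qc, C1qa, Cfp, Cd55, Cd59a and Serping1. Of the 6 neighbouring pairs, Cd55 and Cd59a were the only one within 3 SD. The step from Cfp to Cd55 was a log2 of 5.94 ± 0.21 on the TPM + 1 scale, and that from Cd59a to Serping1 was 1.27 ± 0.16. The size of the second step is set by the pseudocount and scale, with 3.74 ± 0.39 at a pseudocount of 0.1, 2.50 ± 0.22 in TPM over nuclear protein-coding genes alone and 0.84 ± 0.14 in the second table. The members thus fell into 4 abundant genes, from 188.9 TPM upward in every library, and 3 genes at or below 2.66 TPM.

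**Figure D3:**
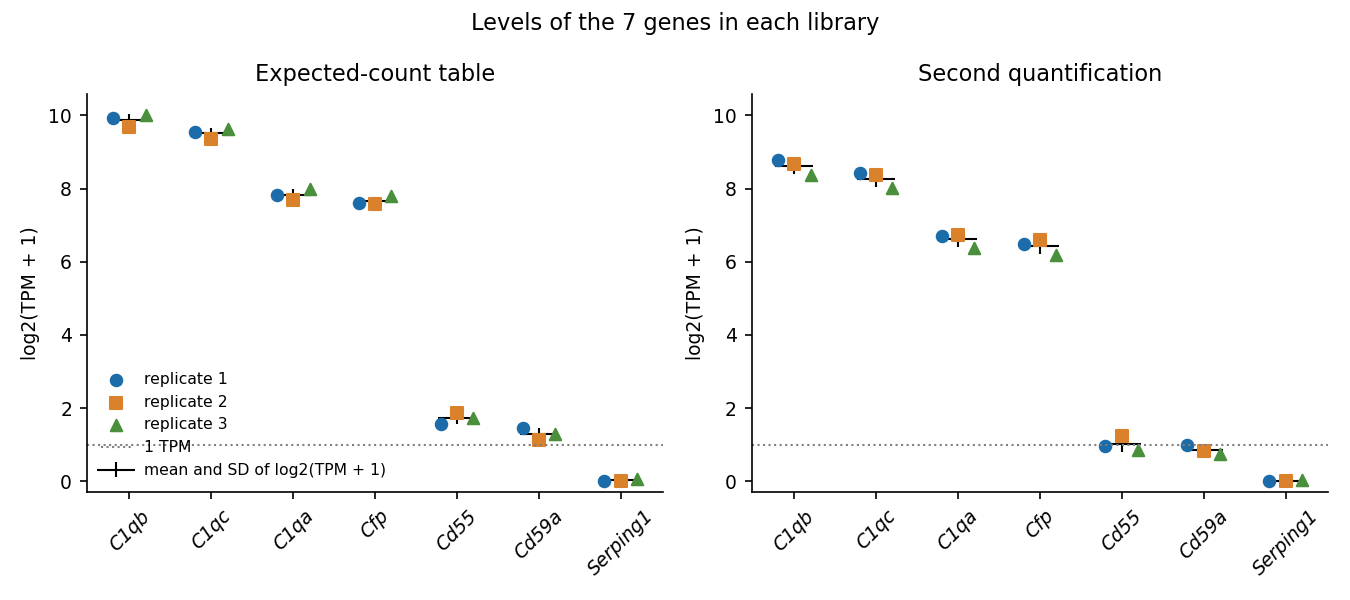
Level of each gene as log2(TPM + 1) in the expected-count table (left) and in the second deposited quantification (right). Points are libraries, black marks are the mean and SD over 3 libraries, and the dotted line is 1 TPM; the order of the genes is the same in both panels, and replicate 3 is the highest of the C1q points on the left and the lowest on the right.

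The replicates differed by more than counting error for most members, as for most genes. A chi-square test of homogeneity on counts, given TMM-scaled library sizes and with Benjamini-Hochberg adjustment over 13403 genes, called 66.2% of all genes tested. Of the 6 members with a mean count of at least 10 it called 5, namely the C1q chains, Cfp (adjusted p = 1.92e-41) and Cd55 (adjusted p = 9.05e-08), and not Cd59a (adjusted p = 0.305). Serping1, with a mean of 2 counts, was not tested. A count of 5 in 6 is read against the 66.2% of all genes, and the test compares libraries, not conditions. Without replicate 3 C1qa was not called (adjusted p = 0.0914), and the test then called 5708 genes in place of 8872. The biological coefficient of variation estimated by edgeR was 0.124 for C1qa, 0.134 for C1qb, 0.131 for C1qc and 0.126 for Cfp, each below the trend for genes of like abundance (0.136, 0.148, 0.147 and 0.140). For Cd55 it was 0.181, above its trend of 0.162, and for Cd59a 0.186 against 0.217.

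In the first table the abundant members were highest in replicate 3 and the membrane regulators were not. In TMM-scaled CPM, which corrects counts for library size, C1qa, C1qb, C1qc and Cfp were higher in replicate 3 than in both others, 4 of 6 members tested beside 32.4% of all genes. Their log2 ratios to the mean of the other libraries were 0.20, 0.18, 0.14 and 0.16, beside a median of -0.02 over all genes. In CPM the chain C1qb stood at 1404, 1273 and 1516 in replicates 1, 2 and 3. In replicate 2 the C1q chains and Cd59a were lower than in both others, 4 of 6 members beside 29% of all genes, and no member was lowest in replicate 3, beside 36.2%. Cd55 had another order, with 6.63, 10.7 and 8.67 CPM, highest in replicate 2 (38.3% of all genes) and lowest in replicate 1, as was Cfp (34.8%). Cd59a stood at 3.85, 3.19 and 3.64 CPM, highest in replicate 1 (29.3%). With the counts of the second quantification the ratios of the C1q chains and Cfp in replicate 3 fell to between 0.02 and 0.09, beside a median of -0.11 over all genes. The chains were then still highest in replicate 3, but Cfp was highest in replicate 2, with a ratio of 0.09 there and 0.05 in replicate 3. Cd59a was then highest in replicate 3 in place of replicate 1, with ratios of 0.06, -0.15 and 0.09 in replicates 1, 2 and 3. The neutrophil markers summed to 9.39, 12.0 and 10.9 TPM in replicates 1, 2 and 3, but the detected ones differed in order. S100a9 stood at 3.18, 5.89 and 4.77 TPM, S100a8 at 3.51, 3.76 and 3.31 TPM and Mmp8 at 2.47, 1.9 and 1.76 TPM. The part of these markers in the differences between libraries was not tested.

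**Figure D4:**
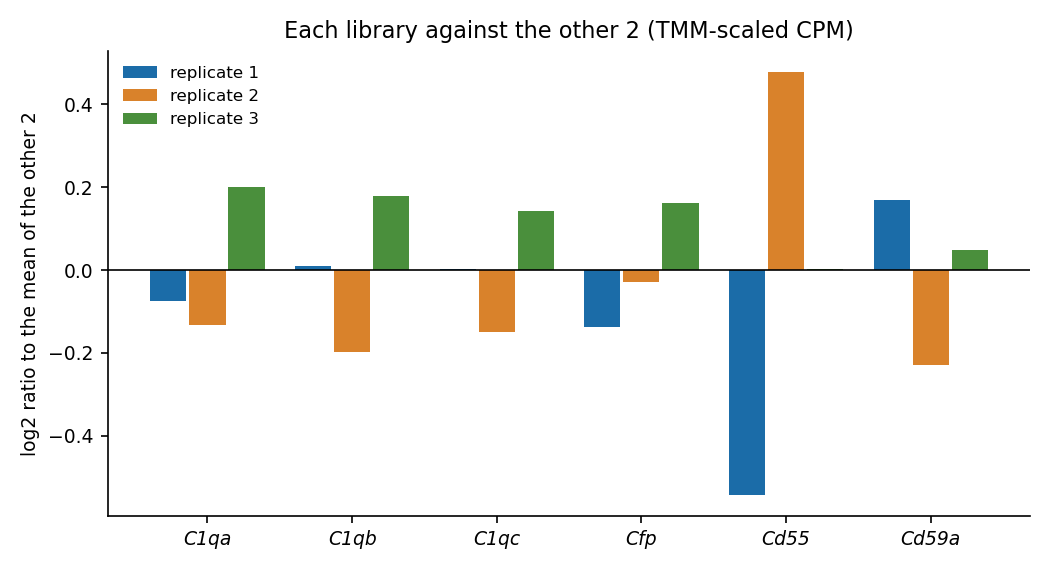
Log2 ratio of each library to the mean of the other 2 in TMM-scaled CPM, for the 6 members with a mean count of at least 10. The C1q chains and Cfp lie between 0.14 and 0.20 in replicate 3, and Cd55 runs from -0.54 in replicate 1 to 0.48 in replicate 2.

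Around these members the rest of the complement system was sparse, except for C3, factor B and most of the receptors. Of 54 other complement genes 15 reached 1 TPM in every library, beside 41.2% of nuclear protein-coding genes. In the classical and lectin list 3 of 16 genes did so, namely C3, the central component, at 117.6, 117.4 and 74.0 TPM, C1ra, and the ficolin Fcna at 2.14, 1.51 and 2.27 TPM. C2 and C4b, which are needed to build the classical C3 convertase, were each below 1 TPM. Of the alternative pathway Cfb, the protease factor B, stood at 74.7, 45.7 and 100.0 TPM beside Cfp, while Cfd, the protease that activates factor B, had 0 counts in all 3 libraries. None of the 7 terminal pathway genes reached 1 TPM, and C6, C7, C8a and C8b had 0 counts in all 3 libraries.

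Few regulator genes were detected. None of the 9 fluid-phase regulators examined, Serping1 among them, reached 1 TPM. Of the 8 membrane regulators 3 were detected in the first table, Cd55, Cd59a and Cr1l. Cr1l, the gene of the rodent C3b regulator Crry, stood at 24.2, 20.5 and 20.6 TPM, above both members of its class in every library. Of the 15 receptor genes 10 were detected. The highest were C3ar1, the receptor for C3a, at 238 ± 41.9 TPM, Calr, a chaperone that can bind C1q at the cell surface, at 212 ± 20.6 TPM, and the integrin chain Itgb2 of complement receptors 3 and 4 at 90.7 ± 16.7 TPM. Itgax, the partner chain of Itgb2 in receptor 4, was not detected, at 0.35, 0.19 and 0.25 TPM. Of 3 transcription factors known in C1q gene control all were detected, with the lineage factor Spi1, which encodes PU.1, at 104 ± 7.73 TPM, Maf at 80.1 ± 7.03 TPM and Irf8 at 51.3 ± 7.26 TPM.

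**Figure D5:**
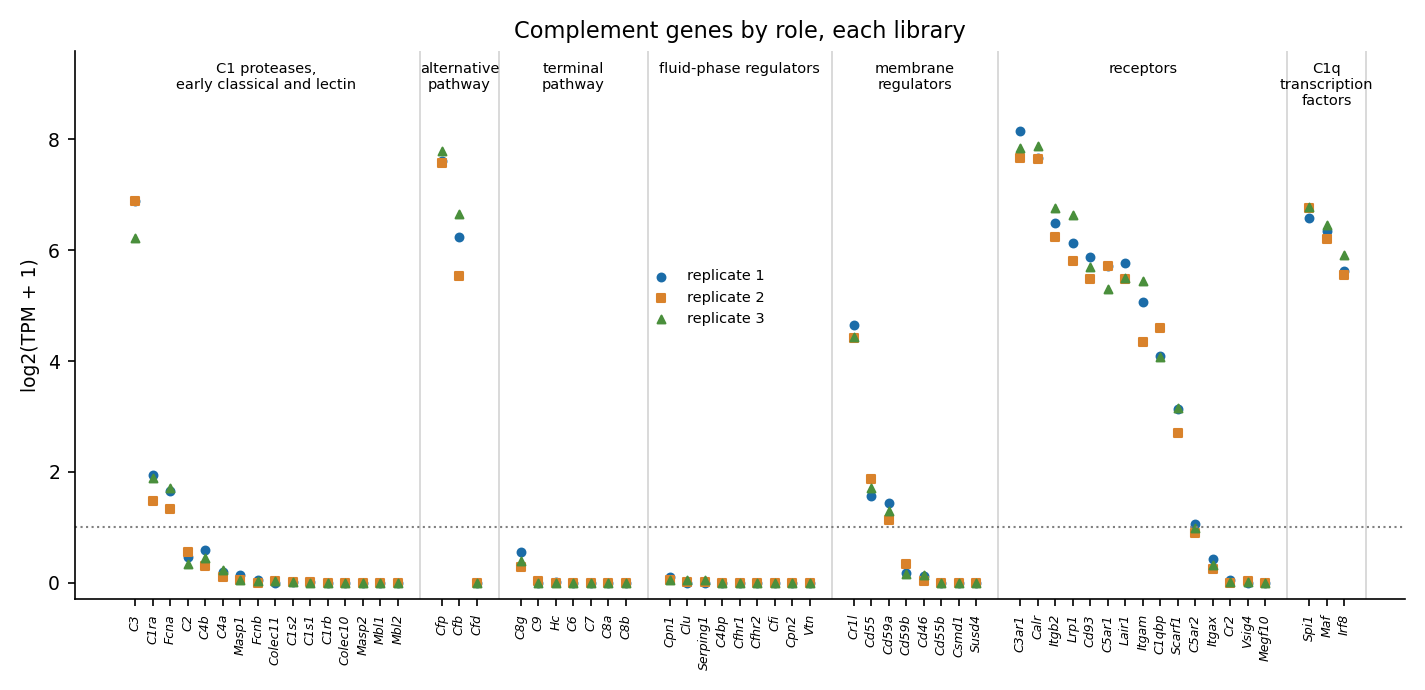
Level of each complement gene as log2(TPM + 1), grouped by role; points are the 3 libraries and the dotted line is 1 TPM. C3, Cfp and Cfb, many of the receptors and the C1q transcription factors lie high, but 5 of the 15 receptors did not reach 1 TPM in every library. The terminal pathway and fluid-phase regulator genes lie at or near 0.

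By Euclidean distance of log2(TPM + 1) over the 3 libraries, the protein-coding genes nearest to the mean of the C1q chains were Selenop, which encodes the secreted selenoprotein P, at 546, 498 and 561 TPM (distance 0.10), Sirpa, the macrophage receptor for CD47 (0.23), and Ifit3, an interferon-induced gene (0.28). Those nearest to Cfp were Efhd2 at 193, 190 and 222 TPM (0.02), Bri3 (0.11) and Cotl1 (0.13). Within a distance of 0.5 lay 19 genes of the first profile and 78 of the second. This distance includes the level of a gene, so near genes are those of like level. The mean of the chains, a log2(TPM + 1) of 9.07, lay between C1qa (7.83) and C1qc (9.51) and is the level of no single chain.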

How the data were processed

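Reads were processed against mm10 and GENCODE M21, according to text deposited for the libraries. The deposited gene and transcript tables hold, per the file headers, an expected count and a TPM over all rows, derived from alignments to the transcriptome, and a percent of the gene per isoform, which was not used here. A second deposited transcript table per library, in the layout of kallisto, holds estimated counts and TPM quantified from reads and an index. Aligner, quantifier, versions and strand use were not given in the sources used here. Unannotated rows (0.774%, 0.207% and 0.167% of counts) were left out.

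Members and lists were chosen with earlier results of these data known. After rounding, expected counts received TMM scaling with edgeR 4.0.16 (R 4.3.3), with dispersions from an intercept alone. A gene counted as detected at 1 TPM or more in every library. The chi-square test took genes whose mean count was 10 or more and an adjusted p under 0.05, and was tested on simulated data. Genes named besides the members are up to 3 of highest level per list and those of a contrast; low or absent list genes were named after their values were seen, and some genes of the lists are not reported here. Alternatives were the second table, pseudocount 0.1, TPM over nuclear protein-coding genes, posterior mean TPM, DESeq2 1.42.0 size factors, total counts, other count and detection limits, and each replicate left out. Other steps used Python 3.11.15, numpy 2.4.6, pandas 2.3.3 and scipy 1.17.1. Intervals cover counting error only.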

Additional observations from a re-analysis of the deposited data

How the results depend on the processing

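The 8 planned contrasts kept their direction and their side of 3 SD under all alternatives run, and so did the added neighbouring pairs, except C1qa against Cfp, whose log2 difference of 0.17 ranged from 0.15 to 0.20 with 1 replicate left out and was within 3 SD without replicate 1 or 3. With 2 libraries the SD rests on 2 values. The number of genes beyond counting noise, 8872, ranged from 5708 to 7319 with 1 replicate left out, when fewer samples were tested. Other complement genes detected numbered 13 at 5 TPM, 21 at 0.1 TPM and 13 in the second table. The share of all protein-coding genes under these settings is not given, so these numbers say nothing particular to complement genes. Detection was not repeated in TPM over nuclear protein-coding genes alone. TPM levels depend on the denominator: over nuclear protein-coding genes alone C1qb stood at 3225 ± 296, C1qc at 2515 ± 182, C1qa at 781 ± 68.1 and Cfp at 693 ± 53.9 TPM, and in the second table at 393, 311, 97.2 and 85.4 TPM. The counts of the second table with their own TMM sizes were added after the data were seen, and lowered the median log2 ratio of the members in replicate 3 from 0.15 to 0.06. Depth limits Serping1, Cd55 and Cd59a, and replicate 1 is the least precise for them. No paired analysis was possible because there is 1 group.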

Other observations

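The deposited gene tables give credibility bounds for TPM, whose level is not stated in the sources used here. For C1qb and C1qc the deposited TPM lay above the upper bound of its own row in 3 of 3 libraries, for C1qa and Cfp in 2 of 3, and for Cd55 and Cd59a in 0 of 3. Serping1 lay below its lower bound in 1 library, replicate 1, with a TPM of 0 and a lower bound of 0.00553. In replicate 1 C1qb had a TPM of 969.96 and bounds of 934 and 953. The posterior mean TPM of each member lay within its bounds in every library, at 943.6 for C1qb and 0.06 for Serping1 in replicate 1. The bounds thus enclosed the posterior mean TPM and not always the TPM used here. They were therefore not used as errors of that TPM.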
